A study of Homo sapiens with 12 samples.

Results

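The 8 neighbouring genes around ING3 on the long arm of chromosome 7 were followed across a DHODH knockdown series in prostate cancer cells. In order along the chromosome they are KCND2, TSPAN12, ING3, CPED1, WNT16, FAM3C, PTPRZ1 and AASS. They were taken by symbol from the count tables, 8 of 63241 genes, and span chr7:120273175-122144308 on GRCh38, which is 1.87 Mb. They were chosen by their counts in KD2 against NT, in which 4 neighbours were higher together, so the KD2 values of these genes are a description and carry no test. Of the 8 genes, 6 had enough counts to be tested. WNT16 and PTPRZ1 did not pass the filter on low counts.

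The genes belong to unrelated families. KCND2 encodes the pore subunit of the Kv4.2 potassium channel of neurons and heart. TSPAN12 is a tetraspanin that joins the Frizzled-4 and LRP5 receptor complex for Norrin. ING3 reads methylated histone H3 and is a subunit of the NuA4/TIP60 histone acetyltransferase complex, CPED1 encodes a protein with a cadherin-like domain, WNT16 is a secreted WNT ligand, FAM3C is a secreted cytokine-like protein, PTPRZ1 is a receptor tyrosine phosphatase that binds pleiotrophin and midkine, and AASS is the mitochondrial enzyme that opens lysine breakdown.

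By the sample labels the 12 libraries came from the established human prostate carcinoma line MDA-PCa-2b, although the growth protocol names MDA-PCa-2a as well. Each of 4 groups had 3 libraries: NT, the first DHODH knockdown (KD1), the second DHODH knockdown (KD2), and a rescue of KD2 (KDR). DHODH is the mitochondrial enzyme of pyrimidine synthesis. The sources used here do not give the meaning of NT, the kind of knockdown, the way the rescue was made, whether a line is a single clone, or any treatment or time.

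Libraries held 23786288 to 38240369 counts. In counts per 1000000 scaled counts (CPM), DHODH itself had a mean of 10.5 ± 2.51 (SD, n = 3) for NT, 10.3 ± 0.674 for KD1, 13.1 ± 1.73 for KD2 and 18.6 ± 0.918 for KDR. Its RNA was thus no lower in libraries with a knockdown label than in NT (edgeR adjusted p = 0.97 for KD1 and 0.097 for KD2), so KD1 and KD2 below mean the libraries so labelled. The spread between libraries was wider in NT, with a biological coefficient of variation of 15.7%, than in KD1, KD2 and KDR, at 5.53% to 7.17%. The summed level of 10 prostate luminal markers was 18655 to 21956 CPM in NT and 13338 to 13865 in KD2, and 8 of the 10 fell in KD2 with NT in edgeR's test, against 18.2% of all genes tested called lower. Its part in the KD2 values of the 8 neighbours was not tested. In markers of other cells, 10 fibroblast genes summed to at most 23.5 CPM and 10 immune genes to at most 3.47 CPM in any library, and CD3E, CD68, CDH5 and TEK were at 0 throughout. Of 10 endothelial genes, which summed to at most 39.3 CPM, EGFL7 was the most abundant. The neuronal and glial list reached 564 CPM, of which MBP alone averaged 517. In bulk RNA, fewer cells of a type and less RNA per cell cannot be told apart.

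Since the genes were chosen as neighbours, the stretches around their start sites are shown to let a reader compare those of genes that were higher in KD2 with those of genes that were not. RefSeq promoter windows on GRCh38.p14, 250 bases before to 50 after the start, were matched by symbol for 7 of the 8 genes, all but ING3. Of these, 5 are printed 5′ to 3′ on the gene's own strand: KCND2 (chr7:120272925-120273224, plus), TSPAN12 (chr7:120858095-120858394, minus), the first of the CPED1 starts (chr7:120988461-120988760, plus), FAM3C (chr7:121396259-121396558, minus) and AASS (chr7:122144200-122144499, minus). Capitals mark letters that match 1 of 8 searched motifs on either strand.
KCND2: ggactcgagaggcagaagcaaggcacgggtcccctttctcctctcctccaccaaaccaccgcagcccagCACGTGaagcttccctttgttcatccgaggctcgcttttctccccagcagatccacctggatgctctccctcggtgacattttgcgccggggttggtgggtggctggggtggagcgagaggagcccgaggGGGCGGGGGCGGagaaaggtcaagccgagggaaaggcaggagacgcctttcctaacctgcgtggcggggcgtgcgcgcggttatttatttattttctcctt
TSPAN12: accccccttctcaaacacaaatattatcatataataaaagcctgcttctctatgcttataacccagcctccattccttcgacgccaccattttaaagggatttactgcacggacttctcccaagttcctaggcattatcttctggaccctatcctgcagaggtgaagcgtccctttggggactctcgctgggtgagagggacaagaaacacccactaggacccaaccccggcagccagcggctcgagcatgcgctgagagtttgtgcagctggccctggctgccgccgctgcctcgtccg
CPED1: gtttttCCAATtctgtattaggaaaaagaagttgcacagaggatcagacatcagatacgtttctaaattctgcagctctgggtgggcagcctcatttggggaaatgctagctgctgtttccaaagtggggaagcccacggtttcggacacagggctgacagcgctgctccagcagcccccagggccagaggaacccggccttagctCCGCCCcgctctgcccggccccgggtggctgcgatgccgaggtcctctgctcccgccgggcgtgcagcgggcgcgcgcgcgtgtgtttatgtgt
FAM3C: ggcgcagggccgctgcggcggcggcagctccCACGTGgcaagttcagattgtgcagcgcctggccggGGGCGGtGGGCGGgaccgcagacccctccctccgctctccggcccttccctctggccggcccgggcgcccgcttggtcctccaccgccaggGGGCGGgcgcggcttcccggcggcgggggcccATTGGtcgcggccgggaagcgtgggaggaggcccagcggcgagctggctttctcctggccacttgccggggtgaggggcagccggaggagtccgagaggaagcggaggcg
AASS: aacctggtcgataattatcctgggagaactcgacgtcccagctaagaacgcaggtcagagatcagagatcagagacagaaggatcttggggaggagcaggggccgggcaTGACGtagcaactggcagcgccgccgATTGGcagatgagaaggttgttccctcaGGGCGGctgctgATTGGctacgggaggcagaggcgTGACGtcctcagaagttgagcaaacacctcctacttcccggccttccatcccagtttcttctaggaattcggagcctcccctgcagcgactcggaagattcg

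A TATA box was searched for as TATAAA and a CCAAT box by the letters of its name. A GC box was searched for as GGGCGG and an E-box, which reads alike on both strands, as CACGTG. Part of the cyclic AMP response element was written TGACG and part of the androgen receptor element TGTTCT. The ATF4 motif was TGATGNAA and the T-cell factor motif CTTTGA. The KCND2 window held 2 adjoining GC boxes and 1 E-box. The CPED1 window held 1 CCAAT box and 1 GC box, and the TSPAN12 window none of the 8. FAM3C had 3 GC boxes, 1 E-box and 1 CCAAT box, and AASS had 2 CCAAT boxes, 1 GC box and 2 cyclic AMP matches. No motif was in the windows of KCND2, TSPAN12 and CPED1 alike. Of 35116 RefSeq promoter windows, 45.0% held a GC box, 34.6% a CCAAT box, 24.6% the cyclic AMP motif, 14.8% the androgen receptor motif, 12.9% the T-cell factor motif, 11.5% a TATA box, 7.26% an E-box and 3.62% the ATF4 motif. CpG counts were 21 in KCND2, 13 in TSPAN12, 20 in CPED1, 35 in FAM3C and 18 in AASS, against a median of 14 over these windows. A further CPED1 window (chr7:120989141-120989440), not printed, had a CpG count of 3 and none of the 8 motifs. A match is a description of letters and not of a bound factor.

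The 4 genes from KCND2 to CPED1 were each several-fold higher in the libraries labelled KD2, while the KD1 libraries overlapped those of NT. ING3 was at 58.0, 54.2 and 59.8 CPM in NT and at 53.8, 56.4 and 60.6 in KD1. In KD2 it was at 339, 306 and 308 CPM, and in KDR at 54.3, 53.9 and 60.1. All 3 KD2 libraries stood above every other library, and NT, KD1 and KDR overlapped. The mean in KD2 was 5.54-fold that in NT (95% interval 5.01 to 6.12).

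TSPAN12, the tetraspanin on the opposite strand 92.4 kb before ING3, was at 30.1, 26.5 and 32.7 CPM in NT and 27.1, 27.7 and 29.6 in KD1. It was at 159, 154 and 160 CPM in KD2, 5.30-fold the NT mean (4.73 to 5.94). In KDR it was at between 14.8 and 16.3, below every library of the other groups. CPED1, which starts 11.5 kb past the end of ING3 on the same strand, was at 5.90, 3.87 and 5.45 CPM in NT and 5.38, 5.74 and 6.64 in KD1. In KD2 it reached 71.9, 66.2 and 59.4 CPM, and in KDR it was at 7.02, 7.61 and 7.61. Its KD2 mean was 13.0-fold that of NT (10.7 to 15.7), the largest ratio among the 6 genes tested.

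KCND2, the channel gene at the start of the stretch, was the lowest of the 4, with 18 to 184 counts per library. It was at 1.27, 2.21 and 1.68 CPM in NT and 1.03, 1.83 and 1.15 in KD1. In KD2 it was at 5.22, 4.72 and 4.88 CPM, 2.87-fold the NT mean (1.92 to 4.30), and in KDR at 1.29, 0.935 and 0.658. The KD2 libraries did not overlap any other group.

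**Figure D1:**
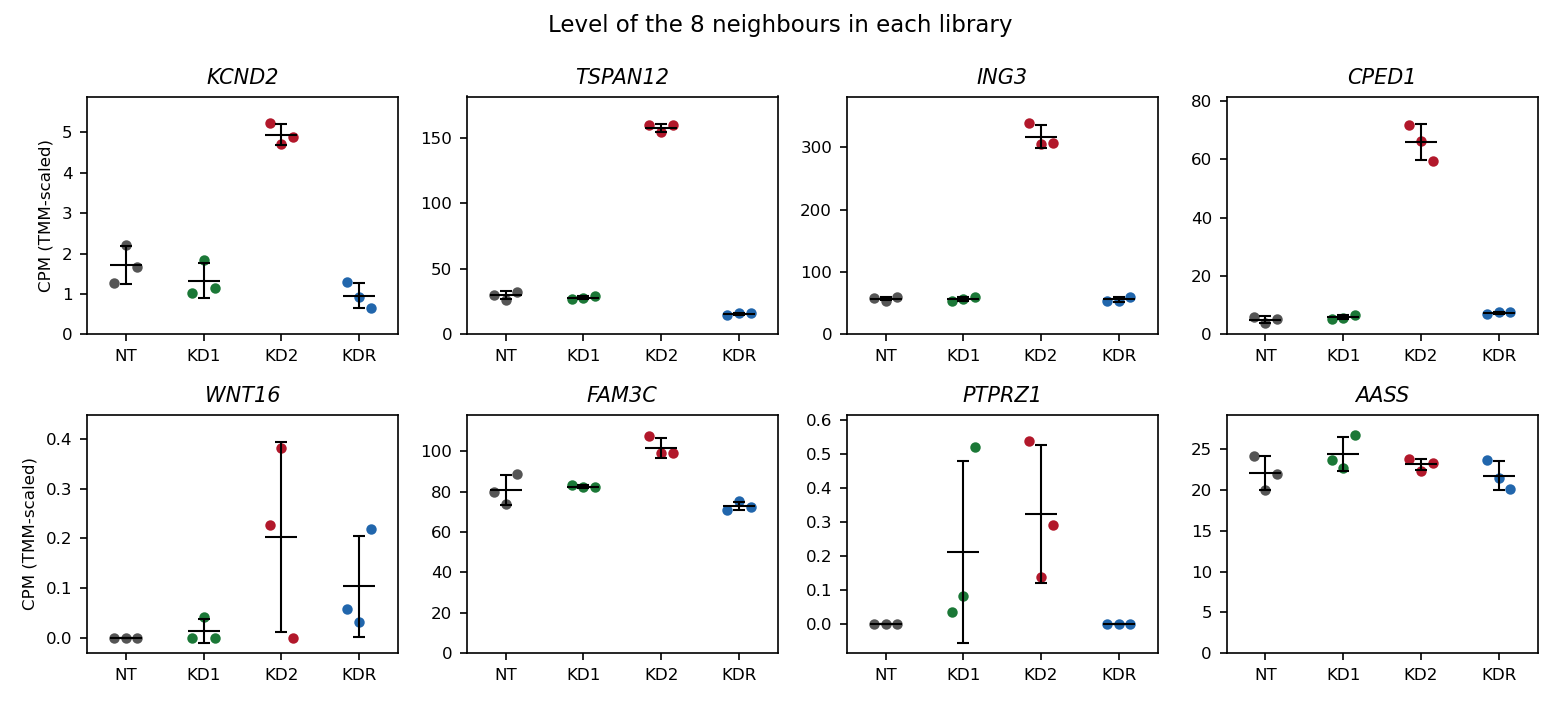
Level of each of the 8 neighbours (vertical axis, CPM scaled by trimmed mean of M values, linear) in the 12 libraries, by group. Points are libraries, horizontal bars group means and whiskers the SD over 3 libraries; KCND2, TSPAN12, ING3 and CPED1 stand apart in KD2, FAM3C by a smaller step (102 against 80.7 CPM in NT), and AASS does not.

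On the far side of CPED1 the difference shrank. FAM3C was at 79.7, 73.7 and 88.7 CPM in NT, 83.2, 82.1 and 82.1 in KD1, and 107, 99.0 and 98.9 in KD2. Its KD2 mean was 1.26-fold that of NT (1.14 to 1.39), so KCND2 was the gene just inside the group of 4 by ratio and FAM3C the gene just outside it. AASS was at 24.3, 20.0 and 22.0 CPM in NT and 23.8, 22.4 and 23.3 in KD2, a ratio of 1.05 (0.910 to 1.21), and its groups overlapped.

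The remaining genes of the stretch were near the limit of detection. WNT16, 27.9 kb past CPED1, had 0 counts in all 3 NT libraries, 1 count over KD1, 8, 11 and 0 counts in the KD2 libraries and 2, 1 and 6 in KDR. PTPRZ1 had 0 counts in NT and in KDR, 19, 4 and 7 in KD2, and 1, 2 and 20 in KD1, so that 1 KD1 library held 20 of the 23 counts of that group. A count of 0 in the 88722355 counts of NT allows a level of up to 0.0338 CPM, by counting error only. No fold is given for these genes.

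Per kilobase of exon, FAM3C was the most abundant of the 6 tested genes in NT, at 23.8 ± 2.21 CPM per kb (SD, n = 3), ahead of ING3 at 11.0 ± 0.551, TSPAN12 at 9.00 ± 0.945, AASS at 2.04 ± 0.196, CPED1 at 0.660 ± 0.139 and KCND2 at 0.284 ± 0.0780. In KD2 the order was ING3 at 61.0 ± 3.60, TSPAN12 at 47.7 ± 0.902, FAM3C at 30.0 ± 1.44, CPED1 at 8.57 ± 0.812, AASS at 2.14 ± 0.0666 and KCND2 at 0.816 ± 0.0422. Libraries of genes next to each other in either order did not overlap. KD1 and KDR had the same order as NT.

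Of the 6 genes, 5 passed edgeR's quasi-likelihood threshold as higher in KD2 than in NT, which the choice of genes fixed for 4 of them; 17.8% of all 19373 genes tested were called higher and 4.46% by at least 2-fold. In the order of log2 fold change over all genes tested, CPED1 was at place 70, ING3 at 196, TSPAN12 at 212 and KCND2 at 637, with FAM3C at 4478 and AASS at 8263. The exons of KCND2, TSPAN12, ING3, FAM3C and AASS shared no base with an exon of another annotated gene. CPED1 shared 3.61% of its exon bases with HMGN1P18. Counting used no option for strand, and whether unspliced or unannotated RNA over exons of the 6 genes was counted was not tested. The tested genes lie on both strands: KCND2, ING3 and CPED1 on the plus strand and TSPAN12, FAM3C and AASS on the minus strand.

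How far the stretch reached was read from consecutive tested protein-coding genes. Those at least 2-fold higher and called in KD2 ran from KCND2 to CPED1, 4 genes over 1.02 Mb, and without the 2-fold minimum from KCND2 to FAM3C, 5 genes over 1.12 Mb. Before KCND2 the nearest tested protein-coding gene was LSM8, an RNA-binding protein of the spliceosome, 2069 kb away. It had 49.7 ± 5.87 CPM in NT and 48.2 ± 2.38 in KD2 (SD, n = 3), a log2 fold change of -0.04 (95% interval -0.22 to 0.13, edgeR adjusted p = 0.72). LINC02476, a long noncoding RNA in the gap between them, was at 1.57 CPM in NT and 1.16 in KD2 (edgeR adjusted p = 0.33). The next tested gene further out, CTTNBP2, which encodes a cortactin-binding protein, fell by 2.28 on the log2 scale in KD2 (edgeR adjusted p = 0.0077), at 0.792 CPM in NT.

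Past AASS a second stretch of 4 tested protein-coding genes was higher in KD2. It began with FEZF1, a zinc finger transcription factor 157 kb past AASS, and held CADPS2, RNF133 and RNF148. CADPS2, a regulator of dense-core vesicle release, was at 203, 222 and 221 CPM in NT, 212, 213 and 216 in KD1, 746, 719 and 716 in KD2 and 127, 135 and 133 in KDR. The KD2 libraries lay above and the KDR libraries below every library of NT and KD1. It rose 3.37-fold in KD2 (log2 fold change 1.75, SE 0.05, edgeR adjusted p = 1.8e-17).

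RNF133 and RNF148, ring finger ubiquitin ligase genes, lie within the span of CADPS2 on the same strand and share no exon base with it. RNF133 was at 1.21 ± 1.05 CPM in NT (SD, n = 3; the lowest library 0.198) and 5.87, 4.69 and 4.93 in KD2, and rose by 2.08 on the log2 scale (edgeR adjusted p = 0.0011). RNF148 was between 1.21 and 1.98 CPM in NT and 5.76, 5.35 and 5.05 in KD2, and rose by 1.75 (adjusted p = 2.2e-05). Whether reads of unspliced CADPS2 RNA were counted for either gene was not tested. FEZF1 rose by 1.20 from 0.849 CPM in NT (adjusted p = 0.0083), and 26.6% of its exon bases are shared with FEZF1-AS1, an antisense RNA that was not called (0.17, adjusted p = 0.38), so its reads are less sure. An antisense RNA within CADPS2, ENSG00000240499, rose by 1.01 (adjusted p = 0.0016) and shares no exon base with CADPS2. Whether reads of unspliced CADPS2 RNA were counted for it was not tested.

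**Figure D2:**
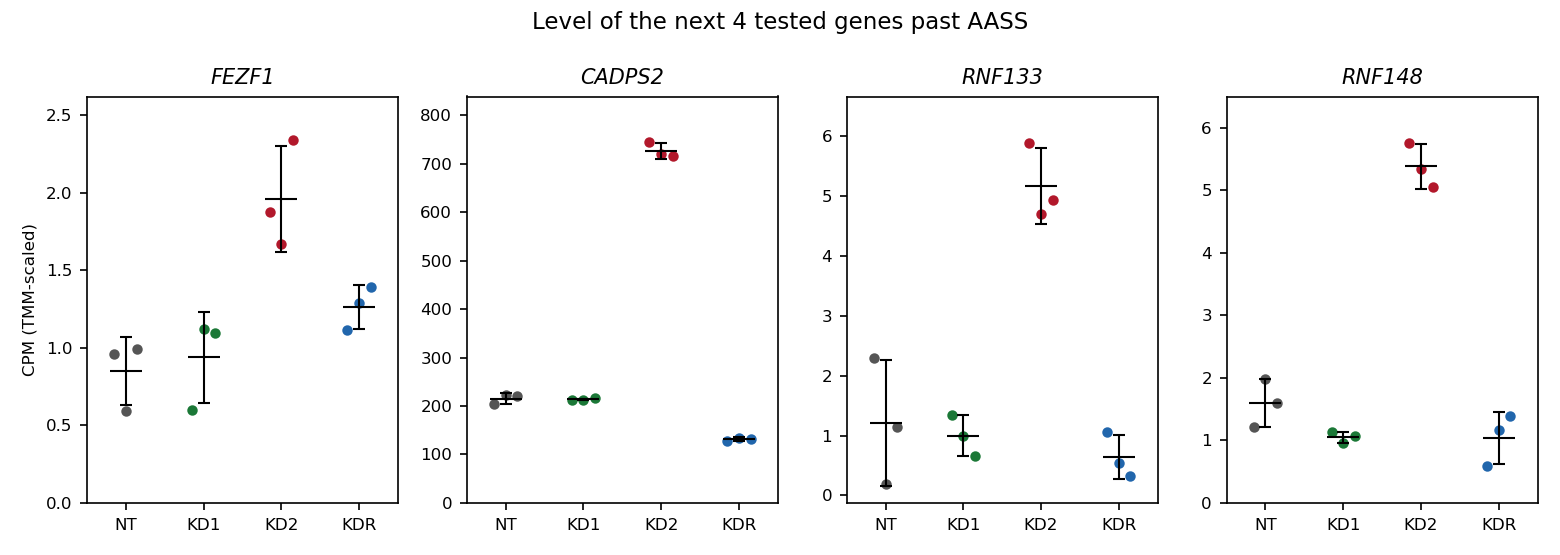
Level of FEZF1, CADPS2, RNF133 and RNF148 (vertical axis, CPM, linear) in the 12 libraries, by group, drawn as for the 8 neighbours. The KD2 libraries lie above those of NT, KD1 and KDR in all 4 genes, and CADPS2 in KDR (132 CPM) lies below NT (215 CPM).

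The second stretch ended before IQUB and NDUFA5, which had log2 fold changes of -0.19 (edgeR adjusted p = 0.65) and -0.27 (adjusted p = 0.068). Between CPED1 and FEZF1 lay FAM3C and AASS, at 1.26-fold and 1.05-fold their NT levels in KD2. WNT16 and PTPRZ1, also between them, were not tested. Within 10 Mb on either side of the 8 genes, 28 of 62 other tested protein-coding genes were called in KD2 with NT, 13 higher and 15 lower, or 45.2%, against 43.8% of all protein-coding genes. Within 5 Mb the count was 11 of 18, 6 higher and 5 lower. Those lower included ST7, a candidate tumour suppressor gene, which fell by 1.36 from 82.6 to 32.1 CPM (adjusted p = 1.2e-12), and ASZ1, a germ-cell gene, which fell by 1.48 (adjusted p = 0.0033). Over chromosome 7 as a whole the median log2 fold change of 648 protein-coding genes was -0.0076 and 19.0% were called higher, against 22.3% of protein-coding genes in all.

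**Figure D3:**
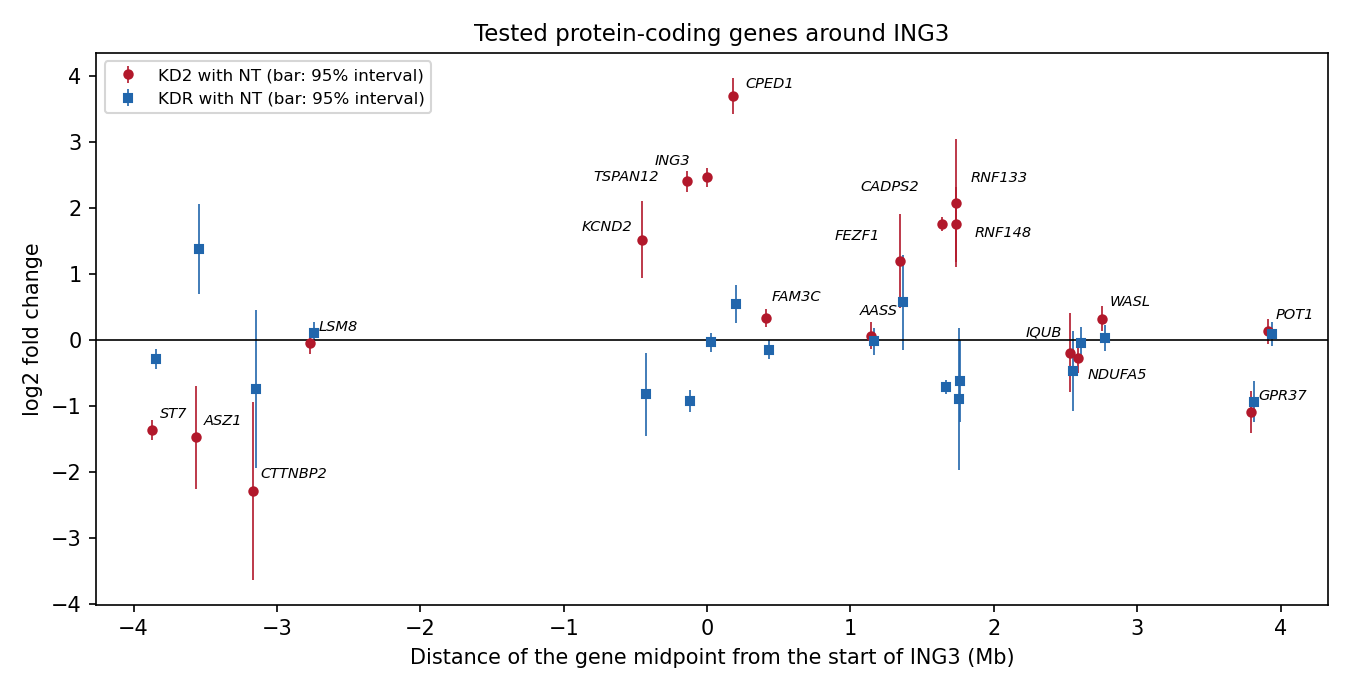
Log2 fold change (vertical axis, bars are 95% intervals) of tested protein-coding genes against the distance of the gene midpoint from the start of ING3 (horizontal axis, Mb), for KD2 with NT (red circles) and KDR with NT (blue squares, shifted sideways to be seen). Labels name the genes; WNT2, at 0 in all KD2 libraries, and genes not reported here are not drawn. KCND2 to CPED1 and FEZF1 to RNF148 form separate groups of high red points, with FAM3C at 0.34 and AASS at 0.07 between them.

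Runs of this kind were few in the genome. Among 13616 protein-coding genes in order on their chromosomes, 601 runs of genes called at least 2-fold higher in KD2 were counted, and 4 of them had 4 genes, with none longer. Those 4 were KCND2 to CPED1, FEZF1 to RNF148, ADCY1 to TNS3 on the other arm of chromosome 7, and TMEM123 to MMP27 on chromosome 11. In the run from FEZF1 to RNF148, RNF133 and RNF148 lie within the span of CADPS2 on its strand. Whether they are separate from CADPS2 in their reads was not tested. With noncoding genes kept in the order, 8 runs had 4 genes or more and the longest had 7. In that order the run that holds CADPS2 went from CADPS2 to RNF148 and did not hold FEZF1. Without the 2-fold minimum, 57 protein-coding runs had at least 4 genes and 18 had at least the 5 genes of the run that holds ING3. The first of these runs was chosen for its KD2 values, so these counts describe the genome and are no test of it.

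KDR was compared with KD2 as a description, since it shares the KD2 libraries that chose the genes. The log2 fold change of KDR with KD2 was -2.50 for ING3 (95% interval -2.65 to -2.36), -3.33 for TSPAN12, -3.15 for CPED1, -2.35 for KCND2 and -0.48 for FAM3C. AASS had -0.09 (-0.29 to 0.12). Set against the KD2 minus NT difference in mean CPM, KDR gave back 100.5% for ING3, 96.2% for CPED1, 111% for TSPAN12, 124% for KCND2 and 137% for FAM3C. CADPS2 gave back 116%. In the second stretch, RNF133 and RNF148 also fell in KDR with KD2, by 2.97 and 2.38 on the log2 scale (edgeR adjusted p = 5.7e-05 and 8e-07). The fall of FEZF1, by 0.63, was not called (adjusted p = 0.16).

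Whether KDR returned to NT differed by gene. ING3 did so within its error: its log2 fold change in KDR with NT was -0.03 (-0.18 to 0.11, edgeR adjusted p = 0.77). TSPAN12 fell in KDR to 0.528-fold the NT level (-0.92, -1.09 to -0.75, adjusted p = 1.3e-08), with all 3 KDR libraries below all 3 of NT. CPED1 stayed above NT at 1.46-fold (0.55, 0.26 to 0.83, adjusted p = 0.0047), again with no overlap. KCND2 was at 0.565-fold (-0.82, -1.46 to -0.19, adjusted p = 0.049) with overlapping libraries, and its adjusted p ran from 0.024 to 0.2 over the alternatives tried. FAM3C had -0.15 (adjusted p = 0.12; 0.0038 without NT replicate 2 and up to 0.43 over the alternatives) and AASS -0.02 (adjusted p = 0.91). Of the 6 genes, 3 were called, against 27.5% of all genes tested. These comparisons share the NT libraries with the values that chose the genes.

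The comparison of KDR with KD1 holds no library that chose the genes. TSPAN12 fell here too, by 0.84 on the log2 scale (-1.02 to -0.67, edgeR adjusted p = 5.2e-08), and all 3 KDR libraries lay below all 3 of KD1. It was the only 1 of the 6 called, where 27.1% of all genes tested were. CPED1 had 0.31 (0.03 to 0.60, adjusted p = 0.093) and FAM3C -0.18 (-0.32 to -0.04, adjusted p = 0.056), each without overlap of the libraries. FAM3C passed with DESeq2 (adjusted p = 0.039) and in a fit of only the 2 groups (0.0016), and its adjusted p was up to 0.18 over the alternatives. ING3 had -0.02 (-0.17 to 0.12, adjusted p = 0.84), KCND2 -0.44 (-1.09 to 0.21, adjusted p = 0.33) and AASS -0.17 (-0.37 to 0.04, adjusted p = 0.23). Outside the 8 genes, CADPS2 fell by 0.70 in KDR with KD1 (adjusted p = 4.7e-10) and by 0.71 in KDR with NT (adjusted p = 3.7e-10).

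No difference between KD1 and NT was detected in the 6 tested genes. The log2 fold changes of KD1 with NT were -0.38 for KCND2 (SE 0.30), -0.08 for TSPAN12 (-0.24 to 0.09), -0.01 for ING3 (-0.15 to 0.13), 0.23 for CPED1 (-0.06 to 0.53), 0.03 for FAM3C (-0.11 to 0.17) and 0.15 for AASS (-0.06 to 0.35). The edgeR adjusted p was 0.79 to 0.99. None of the 6 was called, and 0.0% of all genes tested were: edgeR and DESeq2 each called 0 of 19373, with 1185 at an unadjusted p under 0.05 in edgeR. These intervals hold no change of 2-fold or more in TSPAN12, ING3, CPED1, FAM3C or AASS, whereas that of KCND2 reaches past 2-fold lower. KD2 with KD1, which shares the KD2 libraries, gave 1.90 for KCND2, 2.48 for TSPAN12, 2.48 for ING3, 3.47 for CPED1, 0.30 for FAM3C and -0.08 for AASS, in a comparison in which 35.5% of all genes tested were called.

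**Figure D4:**
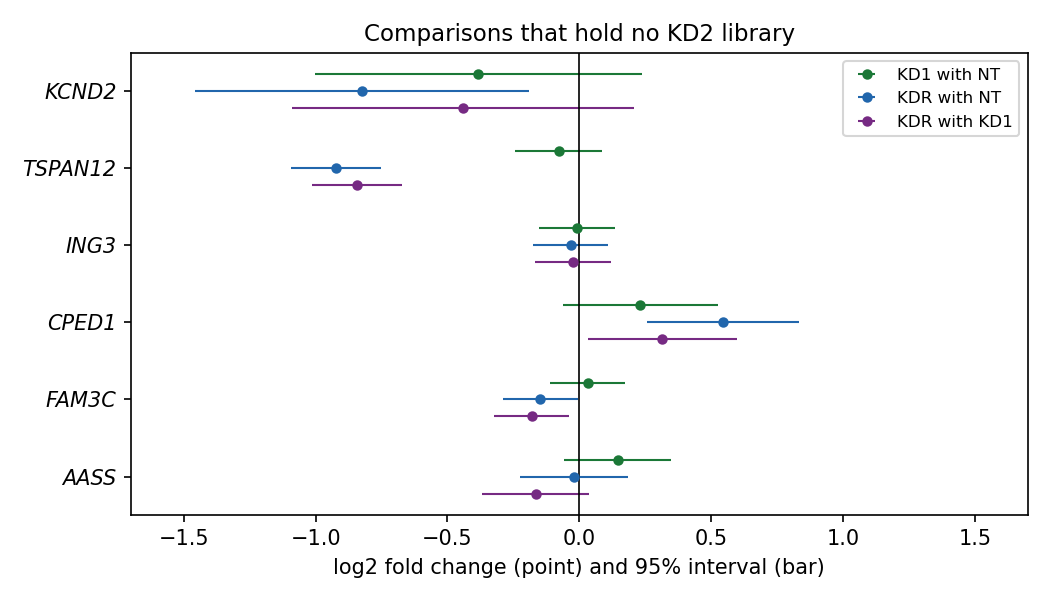
Log2 fold change (horizontal axis; points with 95% intervals as bars) of the 6 tested neighbours (rows) in KD1 with NT, KDR with NT and KDR with KD1. TSPAN12 lies below 0 in both KDR comparisons, at -0.92 and -0.84, ING3 lies at 0 in all, and CPED1 lies above 0 in KDR with NT, at 0.55.

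Partners of the neighbours were taken from lists of related genes. Of 21 tested genes of the NuA4/TIP60 complex and other ING proteins, without ING3, 7 rose and 4 fell in KD2 with NT, and the median log2 fold change was 0.17 against -0.01 over all genes tested. MBTD1, a chromatin-binding subunit, rose by 0.47 (edgeR adjusted p = 7e-05), EP400, the ATPase of the complex, by 0.28 (adjusted p = 0.00098), and TRRAP, its scaffold, by 0.28 (adjusted p = 0.002). The 4 that fell were KAT5, the acetyltransferase of the complex, by 0.28 (adjusted p = 0.032), ING1 by 0.32 (adjusted p = 0.015), and MORF4L1 and MORF4L2 by 0.19 each (adjusted p = 0.014 and 0.0053). In KDR with NT, where 27.5% of all genes tested were called, MORF4L1 was the 1 called of the 21, and fell by 0.28 (adjusted p = 0.0011).

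Of 22 tested genes of the Norrin receptor complex and tetraspanins, which TSPAN12 joins, 6 rose and 11 fell in KD2 with NT, with a median of -0.19. FZD4, the Norrin receptor, rose from 7.22 ± 1.28 to 14.2 ± 1.40 CPM (SD, n = 3; 0.98, adjusted p = 4.8e-06) and its co-receptor LRP5 by 0.34 (adjusted p = 0.002). NDP, the Norrin gene, averaged at most 0.0746 CPM in any group. Of the other tetraspanins, CD63 fell by 0.54 (adjusted p = 2.3e-07), CD9 by 0.34 (adjusted p = 8.6e-07) and CD82 by 1.17 (adjusted p = 9.4e-07), whereas TSPAN6 rose by 1.18 (adjusted p = 9.8e-06) and TSPAN5 by 0.71 (adjusted p = 7.3e-05). In KDR with NT 2 of the 22 rose and 7 fell, against 27.5% of all genes tested called in either direction, and CD63 was among those that fell (-0.53, adjusted p = 6.9e-07).

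WNT genes moved in both directions. Of 34 tested ligands, receptors and targets, 10 rose and 4 fell in KD2 with NT, with a median of 0.03. WNT5A, a ligand of the noncanonical pathway, rose from 742 ± 106 to 3437 ± 44.9 CPM (SD, n = 3; 2.21, adjusted p = 3.8e-17), and WNT5B fell by 2.95 (adjusted p = 3.5e-07). Of the target genes, AXIN2 and LEF1 had log2 fold changes of -0.15 (adjusted p = 0.68) and -0.10 (adjusted p = 0.23), whereas ZNRF3 rose by 0.27 (adjusted p = 0.005) and TCF7 by 0.81 (adjusted p = 0.047).

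For 5 tested Kv4 channel subunits and partners other than KCND2, log2 fold changes in KD2 with NT ran from -1.06 (KCNIP4) to 0.57 (KCNIP2), with edgeR adjusted p of 0.27 to 0.58. Of 4 tested genes of the FAM3 list, 3 fell: LIFR, the receptor of leukaemia inhibitory factor, by 0.52 (adjusted p = 7.1e-05), FAM3A by 0.49 (adjusted p = 9.9e-05) and FAM3D by 1.67 (adjusted p = 0.0021). Among 10 tested ligands, partners and substrates of PTPRZ1, 4 rose and 5 fell. ALK, a receptor tyrosine kinase that shares its ligands, rose from 3.10 ± 0.353 CPM in NT to 24.9 ± 2.21 CPM in KD2 (SD, n = 3; 3.01, adjusted p = 1.8e-12), and MDK, the midkine gene, fell by 0.52 (adjusted p = 0.00082). PTN, the pleiotrophin gene, was near the limit of detection. It averaged 0.209 CPM in NT, 0 in KD2 (called lower, adjusted p = 0.0026) and 0.512 in KDR. Of 17 tested genes of lysine degradation besides AASS, 3 rose and 5 fell, with AADAT, which acts after AASS on aminoadipate, up by 0.55 (adjusted p = 1.6e-05). Each list's count in KD2 with NT stands beside 35.9% of all genes tested, and 43.8% of tested protein-coding genes, called in that comparison.

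The likeness of other genes to ING3 was measured by Pearson's r of log2(CPM + 1) over the 12 libraries, among 11201 genes of at least 5 CPM on average, and is a description, since the 12 points share the split of KD2 from the rest. The 5 genes most like it were ENSG00000258490, ENSG00000254366, PRSS23, C2CD5-AS1 and REG4, with r between 0.996 and 0.998, none of them on chromosome 7. PRSS23, a serine protease, had a mean of 474 CPM in KD2 and of 70.6 to 72.1 CPM elsewhere. Of the neighbours, CPED1 was at place 17 (r = 0.989), TSPAN12 at 133 (0.961), FAM3C at 709 (0.880) and AASS at 5202 (0.135), and CADPS2 was at 201 (0.950).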

How the data were processed

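Libraries of poly-A RNA were sequenced as read pairs, per the labels' protocols. The authors deposited raw counts per gene for each library, made with featureCounts 1.6.4 over exons of Ensembl release 111 on GRCh38 with no option for strand or pairs, per the file headers. HISAT2 is named in the submitters' processing notes; its version is not given in the sources used here. Both ends of a read pair were counted separately, so counts are not independent molecules and counting limits cover counting error only.

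The counts were fitted with edgeR 4.0.16 in R 4.3.3: filterByExpr left 19373 of 63241 genes, scaling was by trimmed mean of M values, and 1 quasi-likelihood model covered all 12 libraries. A gene was called at a Benjamini-Hochberg adjusted p under 0.05 over all genes tested. CPM are per 1000000 scaled counts, and folds are fitted values with 95% intervals. The script was tested on simulated data. Alternatives were DESeq2 1.42.0, its size factors, other filters, a fit of the compared groups alone, a replicate block, and each library left out. Nothing in the labels says that libraries of a group are separate cultures, so p-values cover only their spread, and that spread may be technical. The 8 genes, the lists and the tests were chosen with earlier results of these data known. Named besides the 8 genes are tested neighbours nearest to them or with the smallest adjusted p (up to 6) within 10 Mb, up to 4 genes of each list by adjusted p or by their tie to a neighbour, the 5 genes most like ING3, and the ends of runs. FEZF1-AS1, LINC02476, ENSG00000240499, IQUB, NDUFA5, MET, WASL, PRSS23's values and the runs on other stretches were looked up after the values were seen. Some genes the rule would name are not reported here. Shared replicate numbers did not pair the libraries.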

Additional observations from a re-analysis of the deposited data

Results flagged for a closer look

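Of 62 tested flanking genes outside the 8 neighbours, 25 (40.3%) were called in edgeR's test of KD2 with KD1, 12 higher and 13 lower. That test is of the difference between their effects against NT. Among all tested protein-coding genes, 22.8% were called higher and 20.7% lower, and 5.0% were higher by at least 2-fold. Of the 62 flanking genes, 4 were higher and 4 lower by at least 2-fold. One of the lower genes, WNT2, had no count in any KD2 library and a mean of 0.502 CPM in KD1 (adjusted p = 0.00037). The other 7 were as follows. CADPS2 differed by 1.77 (SE 0.05, adjusted p = 1.5e-17), RNF148 by 2.35 (adjusted p = 7.1e-07), RNF133 by 2.39 (adjusted p = 0.00035) and FEZF1 by 1.05 (adjusted p = 0.019), all higher in KD2. ST7 differed by -1.51 (adjusted p = 2e-13), CTTNBP2 by -1.84 (adjusted p = 0.033) and ASZ1 by -1.01 (adjusted p = 0.045), lower in KD2. Of these 7 calls, 3 were lost without some libraries. The edgeR adjusted p rose to 0.098 for FEZF1, to 0.34 for CTTNBP2 (without KD1 replicate 2) and to 0.23 for ASZ1 (without KD1 replicate 1). Counts were low for these 3 genes and also for RNF133, RNF148 and WNT2, which had 87, 96 and 49 counts over the KD1 libraries. With the replicate number as a block CTTNBP2 had an adjusted p of 0.056, and ASZ1 had 0.066 without a filter on low counts and 0.089 with only the 2 groups.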

How the results depend on the processing

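Of 432 values of the 6 tested neighbours under the alternatives, 410 kept their direction and their side of the threshold or stayed within the spread between libraries. The direction turned only where the value was near 0: KD1 with NT was 0.0079 for ING3 without a filter on low counts and 0.00063 with only the 2 groups, and with 1 library left out ran from -0.0561 to 0.0348 for ING3 and from -0.0261 to 0.108 for FAM3C. Likewise KDR with NT ran from -0.0929 to 0.0540 for AASS and KDR with KD1 from -0.0790 to 0.0230 for ING3. The call of KCND2 in KDR with NT was lost without a filter (adjusted p = 0.081), with 1 CPM in 3 libraries (0.051), with only the 2 groups (0.13) and without NT replicate 2 or 3 or KDR replicate 2 or 3 (up to 0.2). The replicate numbers did not pair the libraries, since 1 of 18 same-number pairs had a correlation of deviations above 0.1; with the number as a block, KD2 with NT called 6882 genes against 6958, KCND2 in KDR with NT had an adjusted p of 0.056, and no other call of the 6 neighbours changed.

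For the named flanking genes the same alternatives were added after seeing the data. With 1 library left out, LSM8 in KD2 with NT ran from -0.141 to 0.0188, CTTNBP2 in KDR with KD1 from -0.637 to 0.585, RNF133 in KDR with NT from -1.46 to 0.0045 and RNF148 in KDR with KD1 from -0.286 to 0.269. With a minimum of 2-fold the counts of genes called were 1796 in KD2 with NT, 1683 in KDR with KD2, 1250 in KDR with NT, 1252 in KDR with KD1 and 1732 in KD2 with KD1. KD1 with NT gave 23 calls without a filter. The cause was not tested. Depth limits WNT16 and PTPRZ1, which could not be tested.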

Other observations

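Of the other runs of 4 protein-coding genes called at least 2-fold higher in KD2 than in NT, the 1 on chromosome 11 held TMEM123, MMP7, MMP20 and MMP27, with a median log2 fold change of 4.37 over 0.309 Mb. MMP7, MMP20 and MMP27 encode matrix metalloproteinases. The run from ADCY1 to TNS3 on chromosome 7 held ADCY1, IGFBP1, IGFBP3 and TNS3, over 2.01 Mb. ADCY1 encodes an adenylyl cyclase and IGFBP1 and IGFBP3 encode binding proteins of insulin-like growth factors. The median of KCND2 to CPED1 was 2.44 and that of FEZF1 to RNF148 was 1.75.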
